A study of Rattus norvegicus with 12 samples.

Results

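The comparison described here set all rat nerve libraries that had received exosomes against all that had not. By the labels, 6 of the 12 libraries in the series were treated with exosomes (Exosome replicates 2, 3 and 5, and Exosome+LIPUS replicates 1, 2 and 3). The other 6 were not (Control replicates 1, 4 and 9, and LIPUS replicates 2, 6 and 7). LIPUS stands for low intensity pulsed ultrasound, which 3 libraries on each side had received, so that ultrasound, yes or no, was a covariate in the test. The question was which genes differed in level with exosomes, whether or not ultrasound was given.

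By the labels, all 4 groups were Sprague-Dawley rats with a crushed sciatic nerve. The study's methods, which describe no group with ultrasound, give male rats 5 weeks old. Sex and age of the LIPUS and Exosome+LIPUS rats are not given in the sources used here. Control rats had the crush alone by the labels, while the study's methods give its comparison group an injection of buffer. Exosome rats had 10 µL of exosomes from human induced pluripotent stem cells (iPSC-Exos), labelled 103, 104 and 105 µg/mL for replicates 2, 3 and 5. Exosome+LIPUS rats had 10 µL labelled 100 µg/mL together with ultrasound. The study's methods give the dose for rats in particles per volume, and after a cell assay its text names for later work the concentration of the Exosome+LIPUS labels. Neither describes steps between rats, and the study names as a limit that different doses were not examined. Whether 103 to 105 stand for different doses or for a numbering error in the labels is not known here, and they were not used in any comparison. In both LIPUS groups the ultrasound was given at 250 mW/cm² and 1 MHz with a 20% duty cycle, for 5 minutes a day on 5 days a week over 4 weeks. The methods describe nerve taken on day 7 after surgery for the groups without ultrasound. The sampling day of the groups with ultrasound is not given in the sources used here, so ultrasound and time after the crush cannot be told apart. Exosome and no exosome were compared within each of these settings. The labels name the whole brain as the tissue, whereas the protocol in the same labels and the methods name the sciatic nerve. This could not be checked against markers of either tissue. The deposited table lists Ensembl gene IDs without names, and the reference table of rat genes used here carries no Ensembl IDs. For the same reason genes are given by ID, and only 2 in each direction.

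Exosomes are small vesicles that cells release and that carry proteins, lipids and RNA to other cells. After a crush, axons beyond the injury degenerate, Schwann cells leave their myelinating state and turn to repair, and macrophages enter and clear debris. Bulk RNA from such a nerve is a mixture of these cells with fibroblasts, vessels and perineurium. In such a sample, fewer cells of a type and less RNA per cell cannot be told apart.

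The libraries held between 1251715 and 1854545 counts, where a count is a read assigned to a gene. The number of genes with any count ranged from 7470 to 8704. The total was 1357419 ± 105131 (SD, n = 6) with exosomes, and its difference of -84778 from the libraries without was not larger than the spread (two-sided exact permutation test within ultrasound settings, n = 6 and 6, p = 0.565, adjusted p = 0.955 over 3 measures). The number of genes detected was 8210 ± 389 (SD, n = 6) with exosomes and 8114 ± 422 (SD, n = 6) without (same exact permutation test, p = 0.695, adjusted p = 0.955). The smallest p this test can give is 0.005. Depending on the library, 3 counts corresponded to 1.91 to 2.58 CPM, where CPM is a gene's count per 1000000 of the library's total after TMM scaling. Values near that level rest on few counts.

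One library stood apart. In Control replicate 9 a single gene, ENSRNOG00000020644, held 602028 counts, which is 32.5% of the library (Wilson interval at 95%, 32.4 to 32.5%, for counting error alone). In Exosome+LIPUS replicate 2 the same gene took 9.28% (9.24 to 9.33%), and in the other 10 libraries between 0.391 and 2.85%. Its mean level was 33235 ± 31478 CPM (SD, n = 6) with and 97016 ± 207542 CPM (SD, n = 6) without, and its log2 fold change was -0.53 with a standard error of 1.48 (edgeR's quasi-likelihood test, Benjamini-Hochberg adjusted over 4640 genes, adjusted p = 0.872). That pooled value joins estimates of opposite sign, neither called. They were -3.24 (standard error 1.27, adjusted p = 0.577) without ultrasound and 2.19 (standard error 0.68, adjusted p = 0.0939) with it (edgeR's quasi-likelihood test). The interaction had an adjusted p of 0.767 (same test). Control replicate 9 had 520382 CPM, while Control replicates 1 and 4 had 20348 and 10421 CPM and the Exosome libraries 9982 to 27739 CPM. The pooled value also turned without Control replicate 9, an alternative chosen after seeing the data, to 1.34 with a standard error of 0.56 (edgeR's quasi-likelihood test, adjusted p = 0.179). The means were then 34648 ± 32860 CPM (SD, n = 6) with and 12860 ± 8728 CPM (SD, n = 5) without. The TMM factor of Control replicate 9 was 0.626.

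The 12 profiles were summarised by principal components of log2 CPM over the 4640 genes with enough counts to be tested. The first component held 21.9% of the variance. All 6 libraries with exosomes had positive scores on it, between 6.97 and 18.4, and all 6 without had negative scores, between -35.7 and -1.02. Control replicate 9 had the score of -35.7, while the LIPUS libraries lay between -13.4 and -6.22 and Control replicates 1 and 4 at -1.02 and -2.56. With Control replicate 9 left out, which was chosen after seeing the data, the scores were between 1.04 and 24.1 with exosomes and between -18.5 and -10.7 without. The second component, with 16.4% of the variance, ran from -6.17 to 17.2 with exosomes and from -19.4 to 24.7 without, so the 2 sides overlapped there. These scores are a description, without a test.

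**Figure D1:**
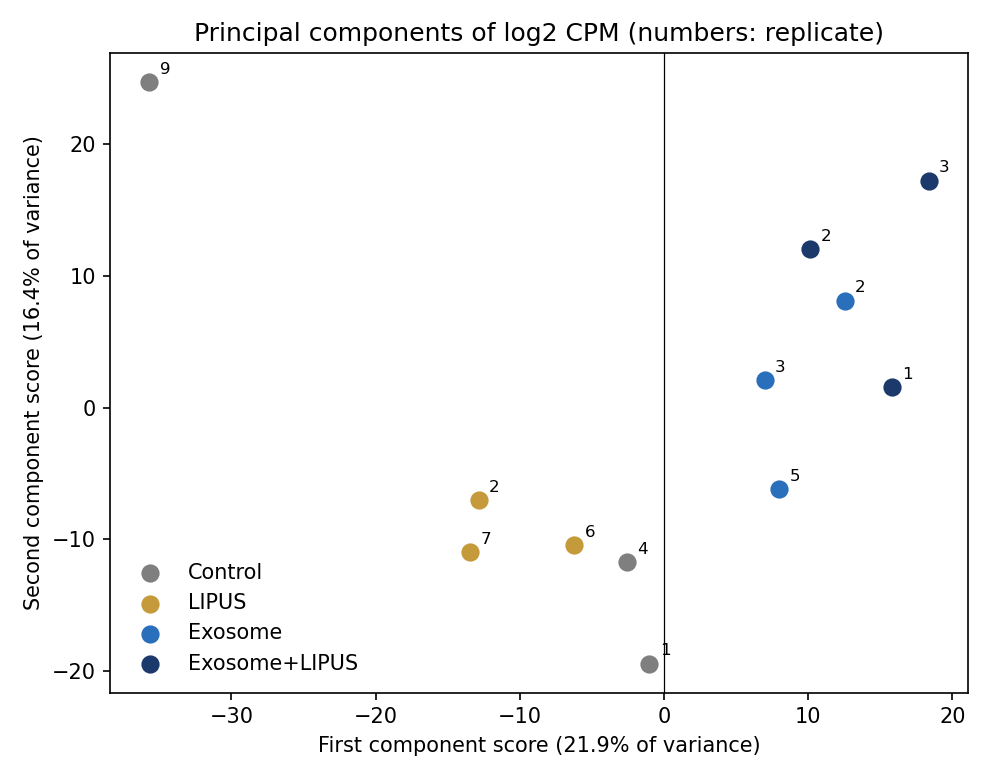
Scores of the 12 libraries on the first component (horizontal axis, 21.9% of the variance) and the second (vertical axis, 16.4%), computed from log2 CPM, with a point for each library, coloured by group and numbered by replicate. All 6 libraries with exosomes lie right of 0 and all 6 without lie left of it, and Control replicate 9 stands at -35.7 and 24.7, away from the others.

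With exosomes, 124 of 4640 genes were higher and 138 were lower than without (edgeR's quasi-likelihood test with ultrasound as a covariate, adjusted p under 0.05). These are 2.67% and 2.97% of the genes tested. The median log2 fold change, with over without exosomes, was 0.84 among the genes that rose and -0.56 among those that fell, and the median standard errors were 0.18 and 0.12. These sizes are of genes chosen by the call and cannot be compared directly, since the genes that rose had a median level of 65.4 CPM without exosomes and those that fell of 258 CPM, and the size of the called changes varied with level. Of the genes that rose, 54 had at least doubled and 15 had risen at least 4-fold. Of those that fell, 18 were lower by a factor of 2 or more and 3 by a factor of 4 or more. Changes of less than 1.5-fold made up 30 of the 124 rises and 73 of the 138 falls. The smallest changes called were 0.30 and -0.27 on the log2 scale. Over all 4640 genes the median log2 fold change was 0.01. Before adjustment, 957 genes had a p under 0.05.

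The share of genes called varied with their mean level. In the 1160 genes with the lowest mean level, between 3.27 and 17.5 CPM, the median standard error was 0.38, and 17 genes were called higher and 6 lower. In the 1160 genes with the highest mean level, from 166 CPM upwards, the median standard error was 0.11, and 42 were called higher and 78 lower. The share of genes called was 1.98% in the former and 10.3% in the latter. Regardless of direction, the called genes changed by a median of 1.03 on the log2 scale between 17.6 and 54.5 CPM, of 0.63 between 54.5 and 165 CPM, and of 0.51 from 166 CPM upwards.

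**Figure D2:**
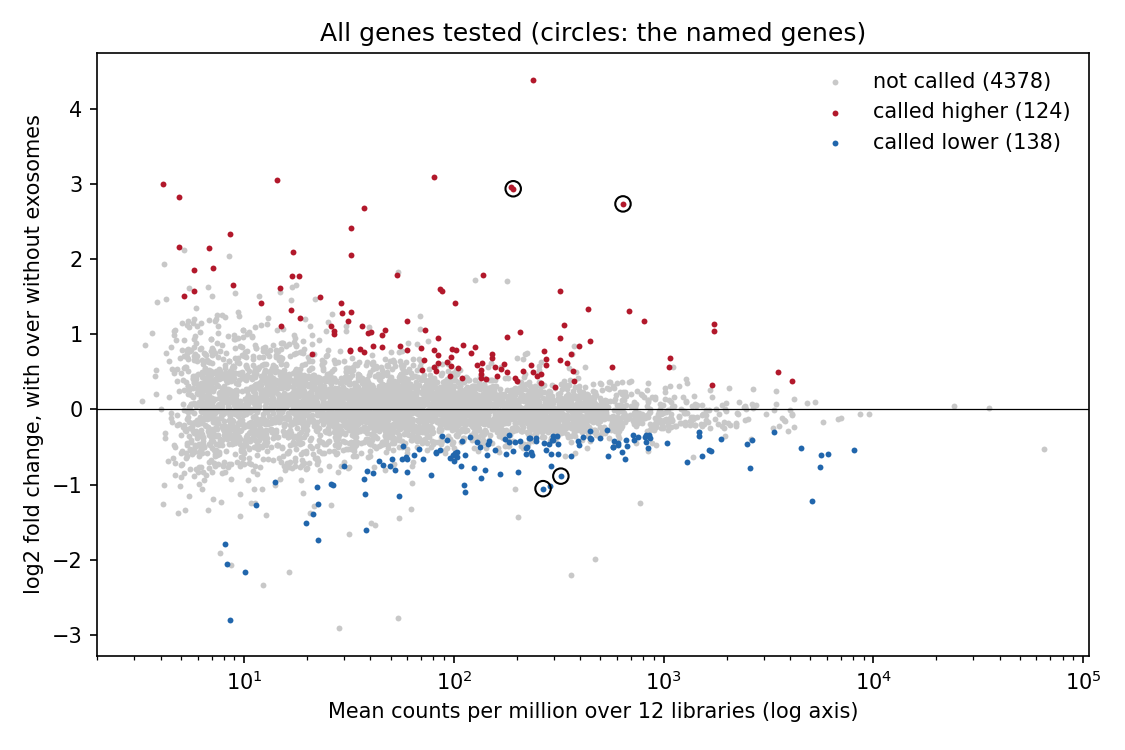
Log2 fold change with over without exosomes (vertical axis) against the mean CPM over the 12 libraries (horizontal log axis), with a point for each of the 4640 genes tested, 124 called higher in red and 138 called lower in blue, and circles around the 4 genes named by ID. Rises reach 4.38 and falls -2.80, and the smaller called changes lie at higher mean levels.

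The counts of calls depended on single libraries. Without Control replicate 9 they were 140 higher and 157 lower, and with all libraries but without ENSRNOG00000020644 they were 122 and 137. Without Exosome replicate 2 they were 72 and 64, without Exosome+LIPUS replicate 3 they were 81 and 88, and without LIPUS replicate 6 they were 82 and 79. The lower calls also fell to 66 without Exosome+LIPUS replicate 1, to 72 without LIPUS replicate 2 and to 77 without LIPUS replicate 7. With the replicate number of the labels as a block, which leaves 2 residual degrees of freedom, 7 genes were higher and 1 was lower. Libraries with a number of their own add nothing to that estimate. It rests on the 7 libraries that share 3 numbers, and both libraries numbered 3 had exosomes.

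A stricter description asks whether every library with exosomes lay on 1 side of every library without. Over the genes tested, 83 had all 6 libraries with exosomes above all 6 without, which is 1.79%, and 108 had all 6 below, which is 2.33%. Among the called genes this held for 63 of the 124 that rose and 82 of the 138 that fell. The remaining called genes overlapped in at least a pair of libraries. Summed over the mean levels of each side, the 124 genes that rose came to 22982 CPM without exosomes and 39466 CPM with. The 138 that fell came to 104525 CPM without and 70659 CPM with. These sums are not shares of counts, since CPM after TMM scaling do not add up to the same total in every library. The direction of these sums is set by the choice of the genes.

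Of the genes that rose, ENSRNOG00000008759 had the smallest p. It lay at 140, 130 and 215 CPM in Control replicates 1, 4 and 9, and at 257, 147 and 118 CPM in LIPUS replicates 2, 6 and 7. It lay at 1739, 879 and 764 CPM in Exosome replicates 2, 3 and 5, and at 631, 801 and 1869 CPM in Exosome+LIPUS replicates 1, 2 and 3. The lowest library with exosomes was thus above the highest without, and the spread was wide among the libraries with exosomes, where Exosome replicate 2 and Exosome+LIPUS replicate 3 were the highest. The group means were 162 ± 46.6 CPM in Control, 174 ± 73.6 in LIPUS, 1127 ± 533 in Exosome and 1100 ± 671 in Exosome+LIPUS (SD, n = 3 each). Ultrasound groups lay within the spread of their counterparts. The log2 fold change was 2.73 with a standard error of 0.30 (edgeR's quasi-likelihood test, Benjamini-Hochberg adjusted over 4640 genes, adjusted p = 0.000509), which is 6.65-fold, higher in 6 of 6 libraries.

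ENSRNOG00000068374 followed in the order of p. Its level was 18.5, 41.1 and 57.9 CPM in Control replicates 1, 4 and 9, and 62.8, 32.8 and 55.3 CPM in LIPUS replicates 2, 6 and 7. In Exosome replicates 2, 3 and 5 it was 550, 298 and 219 CPM, and in Exosome+LIPUS replicates 1, 2 and 3 it was 208, 194 and 566 CPM. The 2 libraries with the highest level of this gene were the same as for ENSRNOG00000008759, Exosome replicate 2 and Exosome+LIPUS replicate 3. The group means were 39.2 ± 19.8 CPM in Control, 50.3 ± 15.6 in LIPUS, 356 ± 173 in Exosome and 323 ± 211 in Exosome+LIPUS (SD, n = 3 each). The log2 fold change was 2.93 with a standard error of 0.34 (edgeR's quasi-likelihood test, Benjamini-Hochberg adjusted over 4640 genes, adjusted p = 0.000509), or 7.64-fold, again without overlap between the sides.

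Of the genes that fell, ENSRNOG00000002039 had the smallest p. It lay at 362, 418 and 456 CPM in Control replicates 1, 4 and 9, and at 385, 422 and 476 CPM in LIPUS replicates 2, 6 and 7. With exosomes it lay at 239, 226 and 288 CPM in Exosome replicates 2, 3 and 5, and at 201, 209 and 206 CPM in Exosome+LIPUS replicates 1, 2 and 3. Every library with exosomes was below every library without, and the 3 Exosome+LIPUS libraries were close together. The group means were 412 ± 47.1 CPM in Control, 428 ± 45.4 in LIPUS, 251 ± 32.5 in Exosome and 205 ± 4.20 in Exosome+LIPUS (SD, n = 3 each). The log2 fold change was -0.89 with a standard error of 0.10 (edgeR's quasi-likelihood test, Benjamini-Hochberg adjusted over 4640 genes, adjusted p = 0.000509). The change was smaller than that of the genes above and its error was smaller too.

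ENSRNOG00000027157 came next among the falls. Its level was 254, 320 and 512 CPM in Control replicates 1, 4 and 9, and 363, 329 and 380 CPM in LIPUS replicates 2, 6 and 7. In Exosome replicates 2, 3 and 5 it was 149, 210 and 168 CPM, and in Exosome+LIPUS replicates 1, 2 and 3 it was 156, 173 and 182 CPM. The sides did not overlap, and Control replicate 9 was the highest of the 12. The group means were 362 ± 134 CPM in Control, 357 ± 26.2 in LIPUS, 176 ± 31.1 in Exosome and 170 ± 12.7 in Exosome+LIPUS (SD, n = 3 each). The log2 fold change was -1.05 with a standard error of 0.15 (edgeR's quasi-likelihood test, Benjamini-Hochberg adjusted over 4640 genes, adjusted p = 0.00151).

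**Figure D3:**
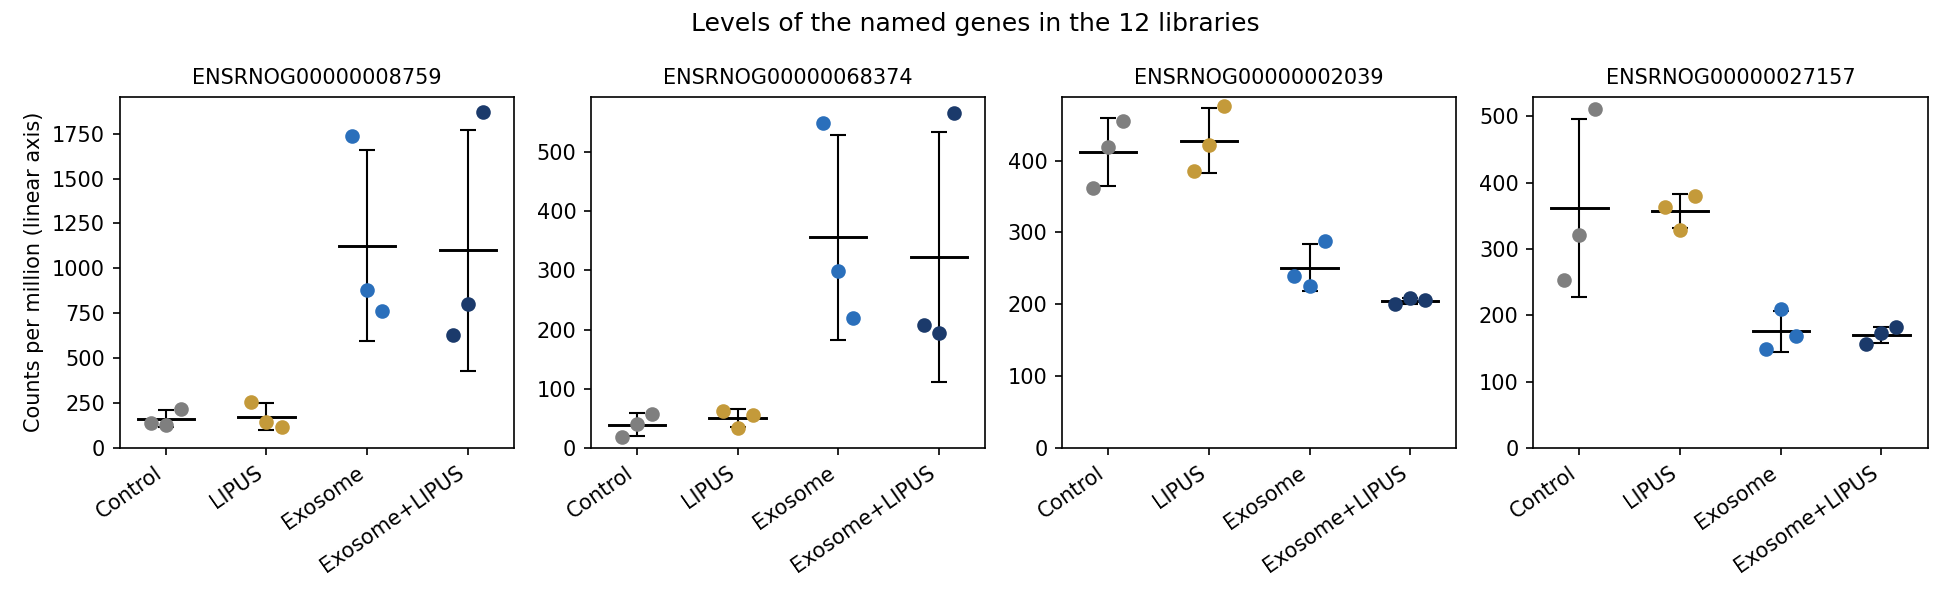
CPM (linear axis) of ENSRNOG00000008759, ENSRNOG00000068374, ENSRNOG00000002039 and ENSRNOG00000027157 in Control, LIPUS, Exosome and Exosome+LIPUS, with a point for each library, a line at the mean and bars of 1 SD (n = 3). In the left-hand pair all libraries with exosomes are above all without, from 631 CPM against at most 257 CPM in ENSRNOG00000008759, and in the right-hand pair all are below.

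Each of the 4 genes kept its direction in all 24 alternative fits and had an adjusted p under 0.05 in each of the 12 fits that left out a library (edgeR's quasi-likelihood test). The genes were chosen by their p in these same 12 libraries, so the refits are not an independent test of them. The largest adjusted p over those 12 fits was 0.00302 for ENSRNOG00000008759, ENSRNOG00000068374 and ENSRNOG00000002039, and 0.00603 for ENSRNOG00000027157. None of the 4 had an adjusted p under 0.05 with the replicate block, where it was 0.0891 for both genes that rose and 0.0599 for both that fell. The log2 fold changes with the block were 2.25, 2.90, -0.80 and -0.99, in the order of the genes above. In the libraries without ultrasound alone, ENSRNOG00000008759 had an adjusted p of 0.0396, ENSRNOG00000068374 of 0.0550, ENSRNOG00000002039 of 0.316 and ENSRNOG00000027157 of 0.364 (edgeR's quasi-likelihood test). Their log2 fold changes there were 2.80, 3.19, -0.71 and -1.04 in the same order, against 2.73, 2.93, -0.89 and -1.05 over all 12 libraries. Similar genes whose reads the counting could have split, and overlapping or antisense genes, were not examined, since the sources used here do not give the counting tool or its strand setting.

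Beyond these, genes can be described by their place in the order without an ID. Among the 12 genes that rose with the smallest p, the log2 fold change was between 0.73 and 4.38, the adjusted p between 0.000509 and 0.00239 (edgeR's quasi-likelihood test), and all 12 were without overlap. Among the corresponding 12 that fell it was between -1.22 and -0.54, with an adjusted p between 0.000509 and 0.00353, and 11 were without overlap. The gene with the largest rise of those called, 4.38 with a standard error of 0.61, had mean levels of 11.0 CPM in Control and 27.7 CPM in LIPUS against 671 CPM in Exosome and 243 CPM in Exosome+LIPUS. The next, with a log2 fold change of 3.09 and a standard error of 0.50, had 12.6 and 18.9 CPM in Control and LIPUS against 195 and 94.2 CPM in Exosome and Exosome+LIPUS. The third, at 3.05 with a standard error of 0.41, had 3.43 and 2.50 CPM against 29.0 and 22.2 CPM. All 3 were without overlap, and the levels of the third without exosomes were close to that of 3 counts.

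The largest falls were of genes with low counts. The gene with the largest fall of those called, a log2 fold change of -2.80 with a standard error of 0.64, had mean levels of 26.1 CPM in Control and 4.57 CPM in LIPUS against 2.20 CPM in Exosome and 1.41 CPM in Exosome+LIPUS, and its sides overlapped. The sixth had the largest counts of the first 6. Its log2 fold change was -1.60 with a standard error of 0.27, and its mean levels were 57.6 CPM in Control and 57.1 CPM in LIPUS against 17.8 CPM in Exosome and 19.7 CPM in Exosome+LIPUS, without overlap.

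The additive test assumes that exosomes made the same difference with and without ultrasound. A test of the interaction found 0 of 4640 genes at an adjusted p under 0.05 (edgeR's quasi-likelihood test), 196 at an unadjusted p under 0.05, and 0 with DESeq2. Of the called genes, 17 of the 124 that rose and 2 of the 138 that fell had an unadjusted interaction p under 0.05. This does not show that the difference was alike in both settings. With no filter on low counts the interaction test gave 64 calls.

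The difference was therefore also computed separately in the 6 libraries without ultrasound (Exosome against Control) and in the 6 with it (Exosome+LIPUS against LIPUS), which share no library. With ultrasound, 115 of 4374 genes were higher with exosomes and 102 were lower, or 2.63% and 2.33% (edgeR's quasi-likelihood test, adjusted p under 0.05). Without ultrasound, 2 of 4278 were higher and 0 were lower, and 330 genes had an unadjusted p under 0.05. ENSRNOG00000008759 was among these 2, and both were also called with ultrasound. Replicates varied by a coefficient of variation beyond counting error of 24.6% without ultrasound and 18.5% with it. The difference between the 2 numbers of calls was not itself tested beyond the interaction above. The calls with ultrasound fell to 56 higher and 32 lower without LIPUS replicate 7, to 74 and 75 without LIPUS replicate 2, to 80 and 45 without LIPUS replicate 6 and to 80 and 64 without Exosome+LIPUS replicate 3. The lower ones fell to 69 without Exosome+LIPUS replicate 2, where 102 were higher. The calls without ultrasound ranged from 0 higher without Control replicate 9, and likewise without Control replicate 1, Control replicate 4, Exosome replicate 2 or Exosome replicate 3, to 6 higher without Exosome replicate 5, and 1 gene was lower without Control replicate 1.

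Genes called with ultrasound were then read in the libraries without it. Of the 115 that were higher, 113 were tested there, and 96 of them (85.0%) had the same sign. Of the 102 that were lower, 101 were tested there, and 99 (98.0%) had the same sign. Over all 4181 genes tested in both settings, 67.9% had the same sign. Their sizes were smaller where they had not been chosen. The median log2 fold change was 1.11 with ultrasound and 0.51 without for the genes called higher, and -0.69 and -0.37 for the genes called lower. For all genes with a positive sign with ultrasound the median without it was 0.12, and for all with a negative sign it was -0.12. Before adjustment, a p under 0.05 with the same sign was seen in 43 of the 113 and 38 of the 101, and with the opposite sign in 0 of either. The same was seen in 6.90% of all 2131 genes with a positive sign with ultrasound and in 7.12% of all 2050 with a negative sign. With the opposite sign it was seen in 0.892% and 0.585% of these, so that few were to be met among 113 and 101 genes. When each of the 12 libraries was left out in turn, the share with the same sign ranged from 77.9%, without Exosome replicate 2, to 92.0%, without Control replicate 9, for the genes called higher, and from 89.1 to 99.0% for those called lower.

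**Figure D4:**
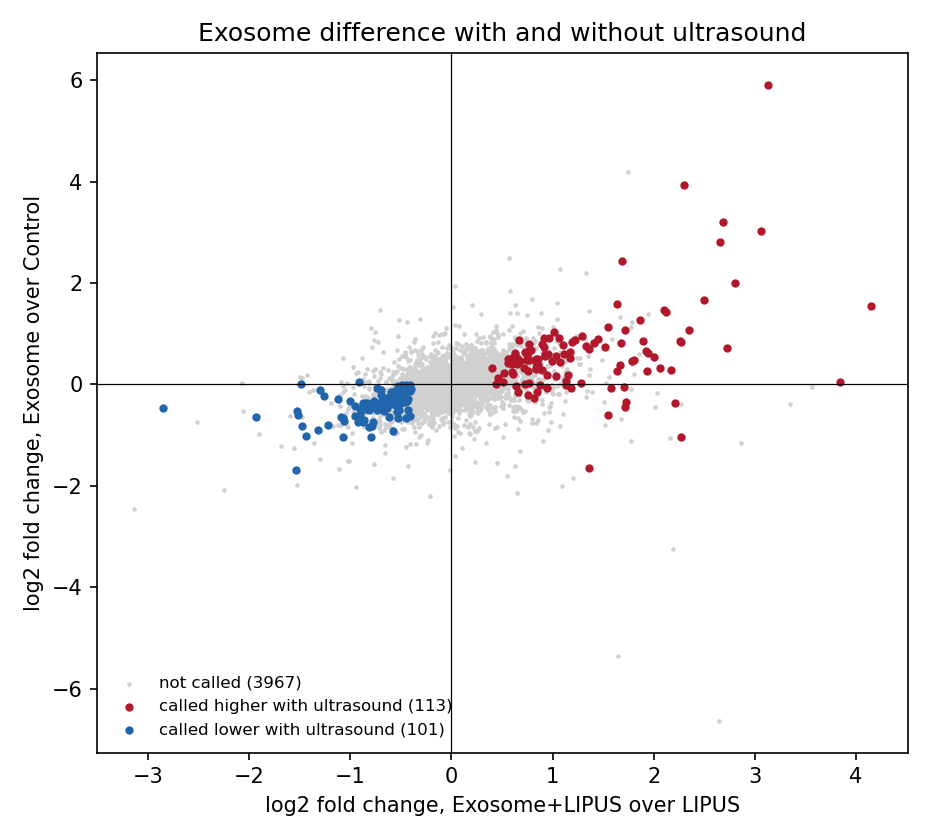
Log2 fold change of Exosome over Control (vertical axis) against that of Exosome+LIPUS over LIPUS (horizontal axis) for the 4181 genes tested in both, with 113 genes called higher with ultrasound in red and 101 called lower in blue. The red points lie above 0 on the vertical axis for 96 genes, and the blue points lie below 0 for 99.

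The reverse reading used the study's thresholds, applied here to edgeR's p and not to that of DESeq2, which the study used, since the adjusted p left 2 genes. This choice was made after seeing the data. They ask for an unadjusted p up to 0.05 together with a change of 0.5 or more on the log2 scale. Without ultrasound, 138 of 4278 genes were higher with exosomes by them and 122 were lower, or 3.23% and 2.85%. Of the 134 higher genes tested with ultrasound, 124 (92.5%) had the same sign, 75 of them with an unadjusted and 41 with an adjusted p under 0.05 there (edgeR's quasi-likelihood test). Of the 120 lower genes, 102 (85.0%) had the same sign, 62 of them with an unadjusted and 28 with an adjusted p under 0.05. With the opposite sign, an unadjusted p under 0.05 was seen in 0 of the 134 and 4 of the 120, against 2.34% and 4.19% of all genes with these signs without ultrasound. The median log2 fold change with ultrasound was 0.57 and -0.48, against 0.15 and -0.13 for all genes with a positive or negative sign without it. For comparison, of all genes with a positive sign without ultrasound 69.2% had that sign with it, and of all with a negative sign 66.7%. Same-sign genes with an unadjusted p under 0.05 made up 17.0% and 18.0% of these, and those with an adjusted p under 0.05 made up 4.67% and 4.66%. The numbers of genes taken in this way were 224 and 206 without Control replicate 1 and 87 and 92 without Exosome replicate 2.

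The genes called with ultrasound were also followed library by library in the 6 libraries without it, as the log2 CPM of each gene minus its mean over those 6. For the 113 genes called higher, the median was -0.32, -0.17 and -0.28 in Control replicates 1, 4 and 9, and 0.47, 0.17 and 0.07 in Exosome replicates 2, 3 and 5. For the 101 genes called lower it was 0.17, 0.12 and 0.26 in the Control replicates and -0.35, -0.03 and -0.16 in the Exosome replicates. Since the values are centred on the same 6 libraries, those of Control and Exosome balance each other, and what differs is how far each library lies from 0. Exosome replicate 2 was the farthest in both sets of genes, and Exosome replicate 3 was near 0 in the genes called lower, with quartiles of -0.21 and 0.06. In Exosome replicate 2, 107 of the 113 genes were above their mean and 6 of the 101 were. In Exosome replicate 5 these counts were 67 and 21, and in Exosome replicate 3 they were 88 and 42. Over all 4278 genes, between 49.7 and 51.9% were above their mean in each of the 6 libraries.

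**Figure D5:**
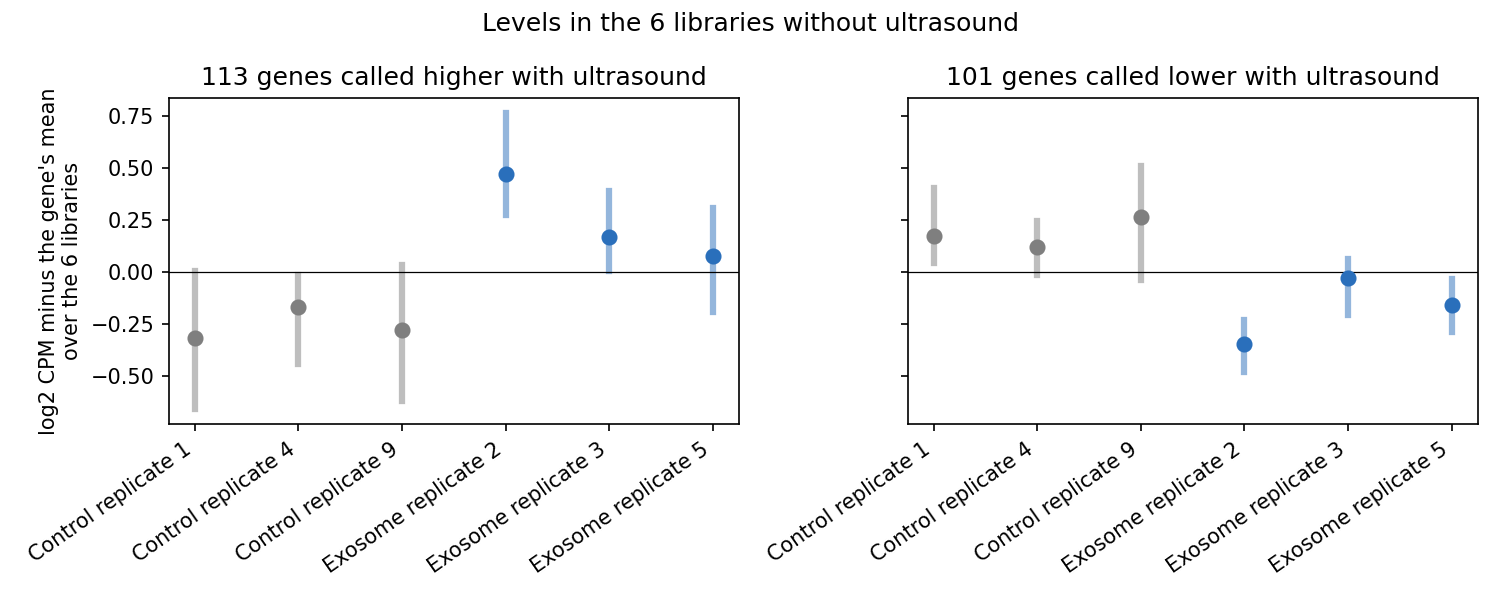
Log2 CPM minus the gene's mean over the 6 libraries without ultrasound (vertical axis), for the 113 genes called higher and the 101 called lower with ultrasound, with a point at the median over genes and a bar from the lower to the upper quartile for each library. The medians of the 3 Exosome libraries lie above 0 in the left panel, from 0.07 to 0.47, and below 0 in the right panel, from -0.35 to -0.03.

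By the study's thresholds on edgeR's p, all 12 libraries together gave 277 higher genes (5.97%) and 191 lower (4.12%) of 4640. The share of rises among the calls was 59.2% by those thresholds and 47.3% by the adjusted p.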

How the data were processed

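RNA of crushed rat nerve was compared in 12 libraries, 3 per group, with groups and replicate numbers from the labels. Each library was taken as a separate sample. The sources used here do not state that each came from a separate rat, so p-values measure only the spread between these samples, which may be technical. All carry the same batch in the labels. Per the submitters' processing notes, reads were trimmed with Trimmomatic (0.38) and aligned with HISAT2 (2.0.5), and SAMtools, StringTie and Rnor_6.0 are named. The authors deposited raw counts per gene as whole numbers. The counting tool, its strand setting and the annotation release are not given in the sources used here.

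Genes were filtered with filterByExpr over the 4 groups, scaled with TMM factors and tested with edgeR (4.0.16) in R (4.3.3) by the quasi-likelihood test, ultrasound plus exosomes, with Benjamini-Hochberg adjustment. A gene was called at an adjusted p under 0.05. Standard errors were derived from F as |log2 fold change|/√F. DESeq2 (1.42.0) was an alternative, beside other factors, filters, models and samples. Principal components were taken from log2 CPM (prior count 2). Every pair of replicates differed by more than counting noise, with a chi-square of at least 5.10 per degree of freedom. The steps were tested on simulated data. Totals, detected genes and the largest gene's share were compared by permuting the exosome label within ultrasound settings (400 arrangements). Only counting error enters the intervals and floors.

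The file lists 30562 IDs, 14298 with a count. The table of 47357 rat genes (GRCr8) used as reference carries no Ensembl IDs, so no match to the file was possible. The lists of cell type markers, pathways and genes of the study could therefore not be applied. Named genes were to be the 2 with the smallest p in each direction, and any gene holding over 10% of a library. The members and lists were chosen with earlier results of these data known.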

Additional observations from a re-analysis of the deposited data

Results flagged for a closer look

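In arms of 6 libraries, 16 sets of values were examined for a library far from the others, for which chance alone marks about 1 set in 20. There were 3 such cases. The share of ENSRNOG00000020644 was 32.5% in Control replicate 9, against 0.391 to 2.25% in the other 5 libraries without exosomes. The share of the same gene was 9.28% in Exosome+LIPUS replicate 2, against 1.08 to 2.85% in the other 5 with exosomes. The first component score of Control replicate 9 was -35.7, against -13.4 to -1.02 in the other 5 without exosomes. Over the 12 libraries the difference in share between the sides was not larger than the spread (means of 3.33% ± 2.98 with and 6.48% ± 12.8 without, SD, n = 6, two-sided exact permutation test, p = 0.955, adjusted p = 0.955 over 3 measures).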

How the results depend on the processing

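The 124 higher and 138 lower calls were 180 and 209 with DESeq2, 218 and 204 with no filter on low counts, 277 and 191 by the study's thresholds on edgeR's p, 2 and 0 in the libraries without ultrasound alone, and 115 and 102 in those with it. Leaving out a library gave 72 to 151 higher and 64 to 161 lower calls. The interaction gave 64 calls with no filter, where standard errors differed too. It gave 179 by those thresholds and 0 in each fit that left out a library. The other alternatives (upper quartile or RLE factors, no ultrasound covariate, a minimum of 10 counts per library, 4 group means, a robust prior, no ENSRNOG00000020644) gave 121 to 138 higher and 123 to 147 lower. Of the 262 calls, 259 were shared with DESeq2, 226 with no filter, 232 without Control replicate 9 and 133 without Exosome replicate 2. With the replicate block 7 genes were higher and 1 lower, at 2 residual degrees of freedom. The 5 pairs of libraries that share a number had correlations of their deviations across genes between -0.12 and 0.12. The 49 other pairs ranged from -0.15 to 0.15, and 1 of 7 libraries correlated best with its own number. So few pairs cannot show whether libraries with the same number have anything else in common, which is not known here. Fits with fewer libraries had fewer residual degrees of freedom, which bears on their counts. The cause of the other differences was not tested.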
